A study of Mus musculus with 16 samples.

Results

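The 40 genes described here encode proteins of the cell division cycle and of DNA replication. They were taken by gene symbol from the table of 50559 symbols, with 13 genes of DNA replication, 22 genes of mitosis and 5 regulators of the passage from G1 to S phase (G1/S). All 40 were among the 18335 genes tested. RNA was from the livers of male C57BL/6J mice, 16 in all with 4 in each of 4 groups, which were 6 weeks old when bought and were on their diet for 10 weeks. The LFD group was fed a low-fat diet, which the labels of the libraries call chow, and the HFD group a high-fat diet. Both received luciferase control siRNA and methylcellulose by gavage over the last 4 weeks. The HFD + siRNA group was on the high-fat diet and received siRNA against ketohexokinase (KHK, which phosphorylates fructose) in place of the control siRNA, with methylcellulose. The KHK siRNA was given at a higher dose than the control siRNA, and dose and target cannot be told apart here. The KHK siRNA is conjugated to GalNAc, which delivers it to hepatocytes. The HFD + Inhib group was on the high-fat diet and received PF-06835919, a systemic inhibitor of KHK, in the methylcellulose, together with the control siRNA. The mice were given saline or insulin shortly before the livers were taken, and which of them had insulin is not given in the sources used here.

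Most hepatocytes of an adult mouse rest outside the cell cycle and enter it again after loss of liver tissue or injury. D-type cyclins with their kinases, and then E-type cyclins, release E2F transcription factors from the retinoblastoma proteins. E2F factors drive genes of DNA replication, among them the MCM helicase, its loaders and the enzymes that make deoxynucleotides. Genes of mitosis are switched on later, through the MuvB complex with B-MYB and FOXM1, and their products build the spindle, align the chromosomes and degrade cyclin B. Mouse hepatocytes also replicate DNA without dividing and become polyploid, so genes of replication and genes of mitosis need not move together.

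Start sites of both classes are shown here because members of a class are described together further on. RefSeq gave 34 windows of 300 bases, from 250 before to 50 after the start, for 32 of the 40 genes in build GRCm38.p6. None was found for Ccna2, Kif20a, Foxm1, Ccnd1, Ccne2, Aurkb, Mcm4 and Tpx2. The letters TTTGAA of the CHR element (cell cycle genes homology region, read by the MuvB complex) were searched on both strands and were in 12 of the 17 windows of mitotic genes (70.6%). They were in 1 of the 13 windows of replication genes (7.69%, in Mcm2) and in 17.9% of all 32851 windows. The E2F letters TTTCCCGC, TTTGGCGC, TTTCGCGC or TTTGCCGC, also on either strand, were in 6 of the 13 replication windows (46.2%, those of Cdc6, Cdt1, Mcm3, Mcm5, Mcm6 and Mcm7). They were in 1 of the 17 mitotic windows (5.88%, in Cdk1) and in 2.26% of all windows. A variant of the CHR letters, TTCGAA, was in 3 of 17 mitotic windows (17.6%), in 1 of 13 replication windows (7.69%) and in 1.56% of all. CCAAT was in 15 of 17 mitotic windows (88.2%), in 9 of 13 replication windows (69.2%) and in 37.4% of all. The 4 windows of G1/S regulators held none of these letters. A match of letters is not a binding site. Windows of 2 mitotic genes and 1 replication gene follow, 5′ to 3′ on the strand of the gene, with matches to CHR, E2F or CCAAT letters on either strand in capitals. Capitals of 8 or more letters can hold overlapping matches.
Cdc20, chr4:118437294-118437593, minus strand: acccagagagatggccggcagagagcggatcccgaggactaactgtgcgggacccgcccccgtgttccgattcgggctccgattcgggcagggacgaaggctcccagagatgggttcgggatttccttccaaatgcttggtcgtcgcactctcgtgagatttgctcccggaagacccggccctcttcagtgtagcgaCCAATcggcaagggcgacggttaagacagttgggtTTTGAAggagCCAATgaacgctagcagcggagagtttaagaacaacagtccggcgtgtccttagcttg
Ube2c, chr2:164769679-164769978, plus strand: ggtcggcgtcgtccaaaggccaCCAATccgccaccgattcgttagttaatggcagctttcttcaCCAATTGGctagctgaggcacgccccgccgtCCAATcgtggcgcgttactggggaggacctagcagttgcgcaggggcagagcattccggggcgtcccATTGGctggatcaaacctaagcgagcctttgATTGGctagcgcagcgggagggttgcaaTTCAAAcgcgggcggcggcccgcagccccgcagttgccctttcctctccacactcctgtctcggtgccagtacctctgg
Mcm6, chr1:128359656-128359955, minus strand: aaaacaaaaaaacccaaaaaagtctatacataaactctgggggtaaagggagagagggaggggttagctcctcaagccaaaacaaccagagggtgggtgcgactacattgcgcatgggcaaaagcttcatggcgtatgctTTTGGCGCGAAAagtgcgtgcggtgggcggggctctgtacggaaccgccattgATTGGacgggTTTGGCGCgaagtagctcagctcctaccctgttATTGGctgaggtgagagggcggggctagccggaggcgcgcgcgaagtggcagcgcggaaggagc
TTTGAA starts 18 bases before the start site of Cdc20. In Ube2c it lies on the other strand, where it reads TTCAAA. Mcm6 holds E2F letters 110 and 47 bases before its start, and the first of these overlaps a second match on the other strand.

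Levels are given as CPM, the counts of a gene per 1000000 counts of its library, scaled for library size and composition, from totals of 24317111 to 35820234 per library. A level of 3 counts, taken as the floor of detection, equals 0.0770 to 0.126 CPM, and covers counting error only. Of the 40 genes, 7 had a mean of under 20 counts per library. These genes with few counts were Cdc6 (mean 8.75), Bub1 (7.25), Aurkb (9.31), Ccne1 (10.9), Plk1 (15.1), Ccnb1 (18.7) and Ccnb2 (19.3). At least 10 counts in every library were reached by 25 of the 40. For Cdc6, Aurkb and Bub1, fewer than 4 libraries outside the HFD group reached the 0.338 CPM that the filter on low counts asked for. These 3 entered the test only with the help of the HFD libraries, in which they were high.

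Khk, the target of the siRNA, was at 214, 233, 349 and 268 CPM in LFD, 250, 322, 233 and 250 in HFD, 11.8, 9.13, 18.1 and 11.5 in HFD + siRNA and 112, 152, 94.5 and 120 in HFD + Inhib (replicates 1 to 4 of each group, in this order here and in what follows). It was lower in HFD + siRNA than in HFD by a log2 fold change of -4.38 ± 0.23 (SE, adjusted p = 1.88e-08) and lower in HFD + Inhib by -1.14 ± 0.20 (SE, adjusted p = 0.000752). Log2 fold changes are given ± SE in what follows. Alb, the most abundant of 8 hepatocyte markers, was at 27682 to 67378 CPM in the 16 libraries. HFD replicate 2 stood apart in genes of lymphocytes. Its Cd8a level, a marker of cytotoxic T cells, was 2.13 CPM (83 counts) against 0.152 to 0.234 CPM in the other 3 HFD libraries. Ighm, the heavy chain of immunoglobulin M, was at 28.6 CPM there against 8.35 to 11.4 CPM. Counts over the 40 genes, the further lists and the lymphocyte and macrophage markers in the 3 comparisons that use HFD are therefore also given without this library.

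Most mitotic genes were higher in HFD than in LFD livers and lower in HFD + Inhib than in HFD livers, while most replication genes passed the test in neither comparison. A gene was called where its Benjamini-Hochberg adjusted p from edgeR was under 0.05. Against LFD, HFD livers had 23 of the 40 genes called higher and 0 called lower, beside 9.58% of all tested genes called higher and 8.79% called lower. The 23 were 19 of 22 mitotic genes, 3 of 13 replication genes and 1 of 5 G1/S regulators. With HFD + siRNA against HFD, 0 were called higher and 1 lower (background 5.20% and 6.55%). With HFD + Inhib against HFD, 0 were called higher and 19 lower (background 9.80% and 8.42%), namely 15 mitotic and 4 replication genes. These 3 comparisons share the 4 HFD libraries. Between the treatments, which share none, HFD + Inhib against HFD + siRNA had 1 gene called higher and 15 lower (background 17.3% and 16.6%). These were 10 mitotic and 3 replication genes and 2 G1/S regulators. Cdc6, Bub1 and Aurkb had passed the filter with the HFD libraries, and of the other 37 genes 21 were called higher in HFD against LFD (18 of 20 mitotic and 2 of 12 replication genes and 1 regulator), and 16 lower in HFD + Inhib against HFD (13 mitotic and 3 replication genes). In whole liver, fewer dividing cells and less RNA of these genes per cell cannot be told apart.

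The median log2 fold change of the 22 mitotic genes was 1.77 in HFD against LFD, beside -0.01 over all tested genes. It was -0.49 in HFD + siRNA against HFD, beside 0.02 over all, and -1.25 in HFD + Inhib against HFD, beside 0.00. The 13 replication genes had medians of 0.23, 0.05 and -0.18 in the same comparisons. Between HFD + Inhib and HFD + siRNA the medians were -0.75 for mitotic genes, -0.36 for replication genes and -0.04 over all. Where edgeR called 0 genes, the counts at an unadjusted p under 0.05 were 1 lower in HFD against LFD (Tk1), 4 higher in HFD + siRNA against HFD (Mcm7, Aurka, Ccnd1 and Cdkn1a) and 0 higher in HFD + Inhib against HFD. DESeq2 called 1, 0 and 0 there. The shares of all genes at the unadjusted threshold are not given here, so nothing is read from the unadjusted counts.

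Without HFD replicate 2, 17 genes were called higher in HFD against LFD (15 of the 21 mitotic genes then tested, 1 replication gene and 1 regulator), beside 8.15% of all genes. In HFD + Inhib against HFD, 10 were then called lower in place of 19 (8 mitotic and 2 replication genes), beside 6.03% of all genes. HFD + siRNA against HFD then had 1 of 39 genes higher (Aurka) and 1 lower (Ccne2), beside 4.16% and 5.92% of all genes. In HFD + Inhib against HFD + siRNA, 8 in place of 15 were called lower without HFD + siRNA replicate 3, without HFD + siRNA replicate 4 or without HFD + Inhib replicate 1. The shares of all genes called lower were then 12.1%, 12.0% and 14.3%.

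**Figure D1:**
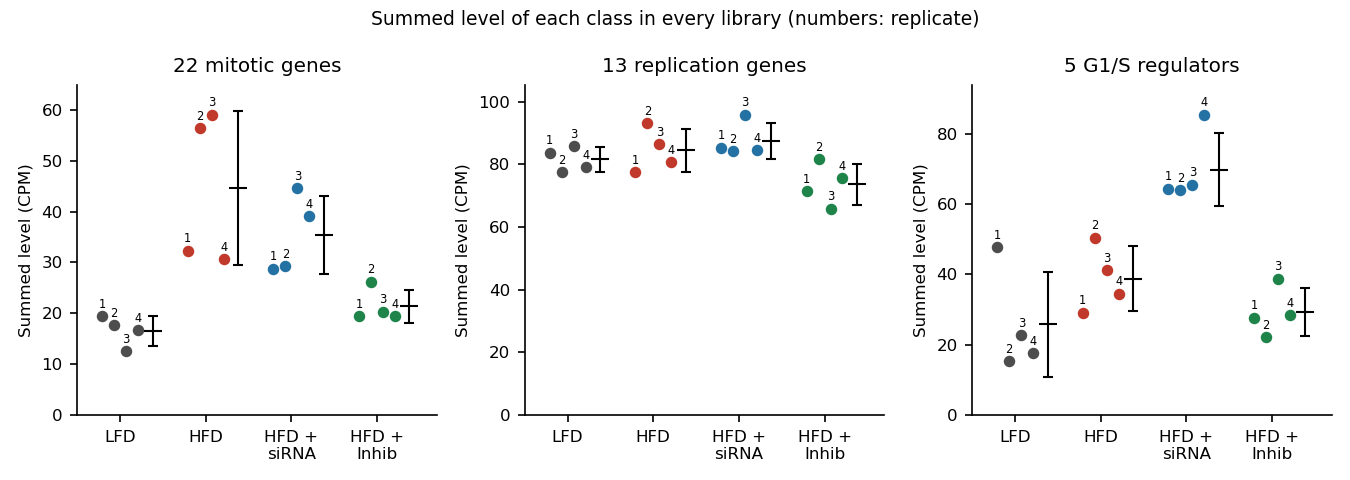
Summed level (CPM) of the 22 mitotic genes, the 13 replication genes and the 5 G1/S regulators in each of the 16 livers. Each point is 1 library with its replicate number, and the bar beside each group is the mean ± SD (n = 4). The mitotic sum is 12.5 to 19.4 CPM in LFD and 30.7 to 59.1 in HFD, where replicates 2 and 3 are highest, and the replication sum overlaps between LFD and HFD.

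The summed level of the mitotic genes was 19.4, 17.7, 12.5 and 16.7 CPM in LFD, 32.3, 56.4, 59.1 and 30.7 in HFD, 28.8, 29.3, 44.6 and 39.1 in HFD + siRNA and 19.4, 26.2, 20.3 and 19.5 in HFD + Inhib, with Mki67 the most abundant. All 4 HFD libraries were above all 4 LFD libraries, and all 4 HFD + Inhib libraries were below both the HFD and the HFD + siRNA libraries. The HFD and HFD + siRNA libraries overlapped. Among HFD livers, replicates 2 and 3 were the 2 highest in 20 of the 22 mitotic genes. The replication genes summed to 83.7, 77.6, 85.9 and 79.1 CPM in LFD, 77.6, 93.1, 86.4 and 80.6 in HFD, 85.3, 84.2, 95.9 and 84.5 in HFD + siRNA and 71.5, 81.6, 65.9 and 75.5 in HFD + Inhib, with Pcna the most abundant. Their HFD libraries overlapped both the LFD and the HFD + Inhib libraries. As with the mitotic sum, all 4 HFD + Inhib libraries were below all 4 HFD + siRNA libraries. No test was made of these sums.

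Mki67 encodes the Ki-67 protein, which coats the chromosomes of dividing cells and is the usual marker of proliferation. Its level was 3.90, 4.05, 1.97 and 3.56 CPM in LFD, 7.09, 13.9, 15.5 and 6.80 in HFD, 5.88, 7.79, 9.79 and 7.67 in HFD + siRNA and 3.42, 5.48, 4.82 and 4.10 in HFD + Inhib. All HFD libraries were above all LFD libraries, with a log2 fold change of 1.69 ± 0.28 (SE, adjusted p = 0.00121). The HFD + Inhib libraries were below all HFD libraries (-1.28 ± 0.28, adjusted p = 0.00405) and below all HFD + siRNA libraries (-0.80 ± 0.28, adjusted p = 0.0342). The last call was lost without HFD + siRNA replicate 2 (adjusted p = 0.0597), HFD + siRNA replicate 3 (0.111), HFD + siRNA replicate 4 (0.0670), HFD + Inhib replicate 1 (0.0984), HFD + Inhib replicate 3 (0.0570) or HFD + Inhib replicate 4 (0.0815). HFD + siRNA was -0.48 from HFD with overlap between the groups (adjusted p = 0.274). Top2a, the topoisomerase that untangles sister chromatids, had 1.01, 1.58, 0.836 and 1.48 CPM in LFD, 3.21, 5.26, 5.76 and 2.42 in HFD, 1.68, 2.51, 4.46 and 3.10 in HFD + siRNA and 1.52, 2.52, 1.94 and 1.83 in HFD + Inhib. It was higher in HFD than in LFD without overlap (1.77 ± 0.33, adjusted p = 0.00217) and lower in HFD + Inhib than in HFD (-1.10 ± 0.31, adjusted p = 0.0220), where HFD replicate 4 overlapped HFD + Inhib replicate 2. The latter call was lost without HFD replicate 2 (adjusted p = 0.0714), HFD replicate 3 (0.0713), HFD + Inhib replicate 1 (0.0646) or HFD + Inhib replicate 4 (0.0565).

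The mitotic cyclins activate Cdk1, the kinase that starts mitosis. Ccna2 (cyclin A2) was at 0.712, 0.537, 0.567 and 0.494 CPM in LFD, 1.72, 2.36, 2.69 and 1.52 in HFD, 0.853, 0.910, 1.67 and 1.73 in HFD + siRNA and 0.989, 1.24, 1.10 and 1.05 in HFD + Inhib. The log2 fold change was 1.85 ± 0.27 (SE, adjusted p = 0.000439) in HFD against LFD and -0.92 ± 0.25 (SE, adjusted p = 0.0174) in HFD + Inhib against HFD, with no overlap in either comparison. The second call was lost without HFD replicate 2 (adjusted p = 0.0535) or HFD replicate 3 (0.0585). Ccnb1 (cyclin B1) had 0.419, 0.143, 0.0298 and 0.165 CPM in LFD, 1.03, 1.39, 1.74 and 1.05 in HFD, 0.601, 0.255, 1.12 and 1.02 in HFD + siRNA and 0.106, 0.349, 0.162 and 0.330 in HFD + Inhib. The HFD libraries were above all LFD and all HFD + Inhib libraries, with log2 fold changes of 2.84 ± 0.54 (SE, adjusted p = 0.00251) for HFD against LFD and -2.44 ± 0.51 (SE, adjusted p = 0.00331) for HFD + Inhib against HFD. Ccnb1 had only 10, 4, 1 and 5 counts in LFD and 3, 9, 5 and 11 in HFD + Inhib, and LFD replicate 3 was under the floor of detection. HFD + Inhib was also lower than HFD + siRNA (-1.65 ± 0.53, adjusted p = 0.0231), with HFD + siRNA replicate 2 inside the HFD + Inhib range, and this call was lost without HFD + siRNA replicate 3 (adjusted p = 0.0770), HFD + siRNA replicate 4 (0.0737), HFD + Inhib replicate 1 (0.0671) or HFD + Inhib replicate 3 (0.0672). Ccnb2 (cyclin B2) was at 0.335, 0.251, 0.209 and 0.296 CPM in LFD, 0.596, 1.28, 1.74 and 0.898 in HFD, 0.664, 0.582, 0.941 and 1.26 in HFD + siRNA and 0.318, 0.544, 0.162 and 0.180 in HFD + Inhib. Its level was higher in HFD than in LFD (2.05 ± 0.41, adjusted p = 0.00355), lower in HFD + Inhib than in HFD (-1.93 ± 0.41, adjusted p = 0.00331) and lower in HFD + Inhib than in HFD + siRNA (-1.55 ± 0.41, adjusted p = 0.00843), with no overlap in these 3 comparisons. Cdk1 had 0.796, 0.286, 0.418 and 0.362 CPM in LFD, 0.762, 1.64, 1.82 and 0.703 in HFD, 1.07, 0.910, 1.74 and 1.73 in HFD + siRNA and 0.706, 0.854, 0.679 and 0.389 in HFD + Inhib. It was called higher in HFD than in LFD (1.43 ± 0.39, adjusted p = 0.0203), although LFD replicate 1 lay inside the HFD range, and this call was lost without LFD replicate 3 (adjusted p = 0.0588), HFD replicate 2 (0.0579) or HFD replicate 3 (0.0719), and in a fit of only the 2 groups (0.0502). The HFD + Inhib libraries were all below the HFD + siRNA libraries (-1.06 ± 0.38, adjusted p = 0.0382), a call lost without HFD + siRNA replicate 3 (adjusted p = 0.109), HFD + siRNA replicate 4 (0.115), HFD + Inhib replicate 1 (0.0646), HFD + Inhib replicate 3 (0.0714) or HFD + Inhib replicate 4 (0.116), and with no filter (0.0524). Against HFD, HFD + Inhib was at -0.92 with overlap (adjusted p = 0.105).

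Cdc20 and Ube2c act in the ubiquitin pathway that ends mitosis, Cdc20 as an activator of the anaphase-promoting complex and Ube2c as a ubiquitin-conjugating enzyme of it. Their start sites are printed above. Cdc20 was at 0.419, 0.251, 0.269 and 0.198 CPM in LFD, 1.19, 2.18, 2.05 and 1.02 in HFD, 1.30, 1.64, 2.93 and 2.28 in HFD + siRNA and 0.318, 0.582, 0.194 and 0.240 in HFD + Inhib. All HFD libraries and all HFD + siRNA libraries were above all LFD and all HFD + Inhib libraries. The log2 fold change was 2.52 ± 0.39 (SE, adjusted p = 0.000664) in HFD against LFD, -2.29 ± 0.38 (SE, adjusted p = 0.000491) in HFD + Inhib against HFD and -2.63 ± 0.38 (SE, adjusted p = 7.98e-05) in HFD + Inhib against HFD + siRNA. HFD + siRNA and HFD overlapped (0.33 ± 0.32, adjusted p = 0.553). Ube2c had 0.251, 0.251, 0.328 and 0.231 CPM in LFD, 1.19, 1.21, 1.63 and 1.05 in HFD, 0.917, 0.655, 1.60 and 1.61 in HFD + siRNA and 0.282, 0.621, 0.259 and 0.270 in HFD + Inhib. Again the HFD and HFD + siRNA libraries were all above the LFD and HFD + Inhib libraries. HFD differed from LFD by 2.23 ± 0.35 (adjusted p = 0.000759), HFD + Inhib from HFD by -1.84 ± 0.34 (adjusted p = 0.00123) and HFD + Inhib from HFD + siRNA by -1.76 ± 0.34 (adjusted p = 0.000938).

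**Figure D2:**
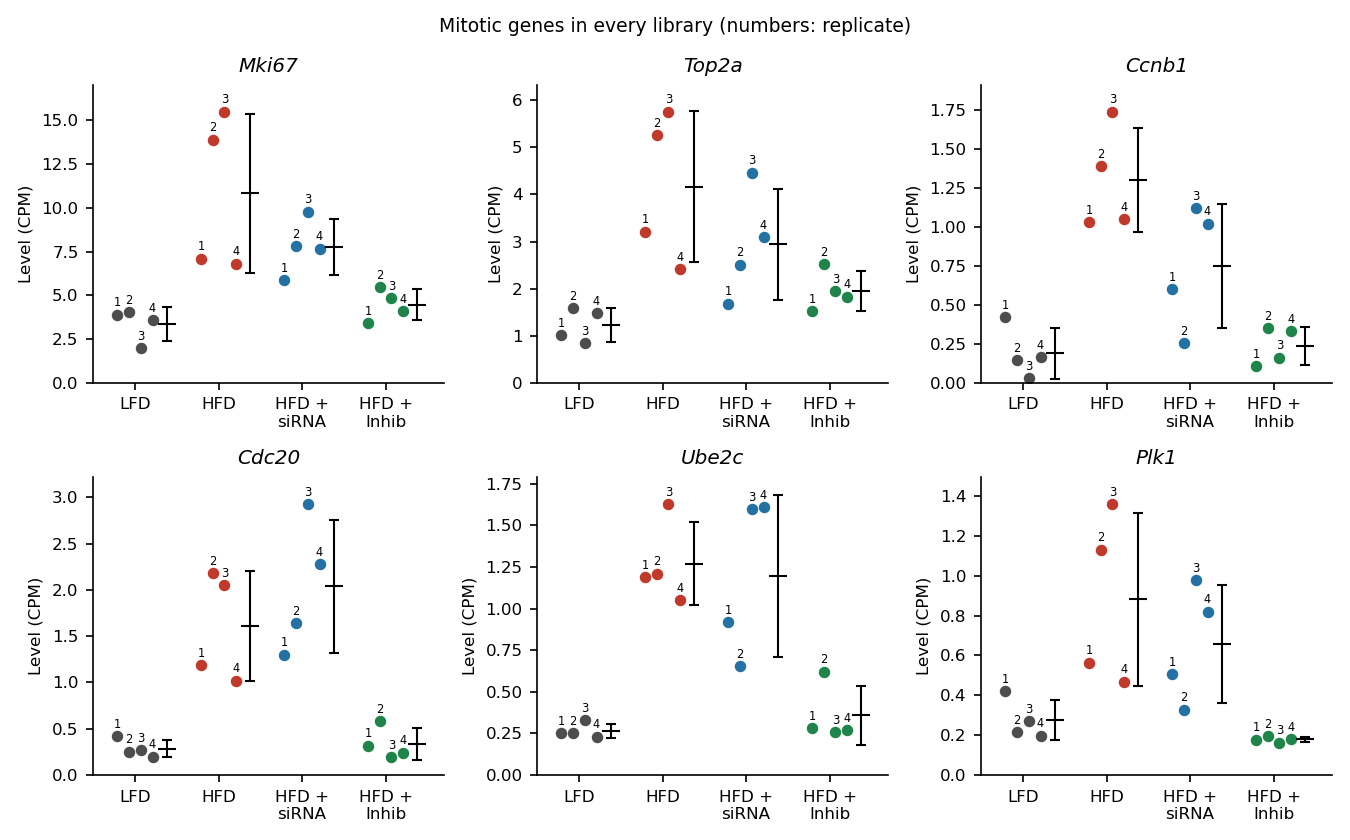
Level (CPM) of Mki67, Top2a, Ccnb1, Cdc20, Ube2c and Plk1 in each of the 16 livers. Each point is 1 library with its replicate number, and the bar beside each group is the mean ± SD (n = 4). The HFD points lie above all LFD points in the 6 panels, and in the Mki67, Top2a, Cdc20 and Ube2c panels the HFD + siRNA points do as well.

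Next come the kinases of mitosis and of its checkpoint. Plk1, a kinase of spindle assembly and mitotic entry with few counts, was at 0.419, 0.215, 0.269 and 0.198 CPM in LFD, 0.563, 1.13, 1.36 and 0.469 in HFD, 0.506, 0.327, 0.976 and 0.820 in HFD + siRNA and 0.177, 0.194, 0.162 and 0.180 in HFD + Inhib. HFD livers had more Plk1 than LFD livers (1.69 ± 0.41, adjusted p = 0.00977) and HFD + Inhib livers less than HFD (-2.29 ± 0.43, adjusted p = 0.00136) and HFD + siRNA livers (-1.87 ± 0.44, adjusted p = 0.00367), without overlap in any of these. The 4 HFD + Inhib values lay within 0.162 to 0.194 CPM, from 5 or 6 counts each. Aurka, the aurora kinase of centrosomes, had 2.22, 1.97, 1.34 and 1.28 CPM in LFD, 1.32, 2.36, 1.82 and 1.64 in HFD, 2.84, 2.51, 2.54 and 2.58 in HFD + siRNA and 1.59, 1.67, 1.46 and 1.29 in HFD + Inhib. LFD, HFD and HFD + Inhib overlapped, and HFD against LFD was 0.08 ± 0.21 (adjusted p = 0.816). The HFD + siRNA libraries were above all others, with HFD + Inhib against HFD + siRNA at -0.81 ± 0.21 (adjusted p = 0.00670) and HFD + siRNA against HFD at 0.54 ± 0.20 (adjusted p = 0.0921). This last difference was called without HFD replicate 2 (adjusted p = 0.0418). Aurkb, the aurora kinase of the chromosomal passenger complex, was at 0.168, 0.394, 0.0597 and 0.198 CPM in LFD, 0.397, 0.770, 0.531 and 0.469 in HFD, 0.158, 0.146, 0.488 and 0.468 in HFD + siRNA and 0.141, 0.233, 0.0647 and 0.210 in HFD + Inhib. It was lower in HFD + Inhib than in HFD with no overlap (-1.74 ± 0.51, adjusted p = 0.0262), a call lost without HFD replicate 2 (adjusted p = 0.0907), HFD + Inhib replicate 1 (0.0646) or HFD + Inhib replicate 3 (0.0804). Its HFD libraries were all above the LFD libraries, and the test gave 1.42 ± 0.50 (adjusted p = 0.0582), called without LFD replicate 2 (adjusted p = 0.0226).

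Birc5 (survivin) belongs to the same complex as Aurkb. It was at 0.461, 0.537, 0.179 and 0.626 CPM in LFD, 1.26, 1.75, 2.12 and 1.25 in HFD, 1.64, 0.873, 1.05 and 0.996 in HFD + siRNA and 1.45, 1.40, 0.679 and 1.11 in HFD + Inhib. HFD was above LFD without overlap (1.83 ± 0.35, adjusted p = 0.00256), and HFD + Inhib against HFD was -0.47 ± 0.32 (SE, adjusted p = 0.346) with overlap. Bub1 and Bub1b (BubR1) are kinases of the spindle assembly checkpoint. Bub1 had 0, 0.179, 0.0895 and 0.132 CPM in LFD, 0.298, 0.565, 0.607 and 0.430 in HFD, 0.348, 0.0728, 0.244 and 0.234 in HFD + siRNA and 0.141, 0.0777, 0.0971 and 0.270 in HFD + Inhib, with 0 to 22 counts per library. Its counts were higher in HFD than in LFD (2.16 ± 0.54, adjusted p = 0.0126) and lower in HFD + Inhib than in HFD (-1.64 ± 0.51, adjusted p = 0.0342), with no overlap in either. The second call was lost without HFD replicate 3 (adjusted p = 0.0802), HFD replicate 4 (0.0555), HFD + Inhib replicate 1 (0.0747), HFD + Inhib replicate 2 (0.0914) or HFD + Inhib replicate 3 (0.0941). It was also lost with the replicate number as a block (0.0508) and with no filter (0.0628). Bub1b was at 0.587, 0.859, 0.746 and 0.725 CPM in LFD, 1.32, 1.69, 1.55 and 0.938 in HFD, 0.695, 0.764, 1.22 and 1.08 in HFD + siRNA and 0.812, 0.738, 0.841 and 0.659 in HFD + Inhib. Bub1b too was higher in HFD than in LFD (0.92 ± 0.24, adjusted p = 0.0145) and lower in HFD + Inhib than in HFD (-0.86 ± 0.24, adjusted p = 0.0177), again with no overlap. This second call was lost without HFD replicate 2 (adjusted p = 0.0660) or HFD + Inhib replicate 4 (0.0557).

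Among genes of the spindle, which moves the chromosomes, Kif11 is the motor that pushes spindle poles apart, and it was at 1.09, 1.25, 0.716 and 1.05 CPM in LFD, 1.76, 2.57, 2.20 and 1.29 in HFD, 1.14, 0.837, 1.46 and 1.58 in HFD + siRNA and 0.883, 1.94, 1.0 and 1.08 in HFD + Inhib. HFD was above LFD without overlap (0.94 ± 0.29, adjusted p = 0.0339), a call lost without LFD replicate 1 (adjusted p = 0.0631), LFD replicate 3 (0.107), LFD replicate 4 (0.0516), HFD replicate 2 (0.101) or HFD replicate 3 (0.0879), and with GC and length offsets (0.74, adjusted p = 0.106). HFD + Inhib against HFD was -0.69 ± 0.29 (adjusted p = 0.111), called without HFD + Inhib replicate 2 (adjusted p = 0.0246). Kif20a, a motor of cytokinesis, had 0.880, 0.823, 0.537 and 0.823 CPM in LFD, 0.894, 2.87, 2.58 and 1.05 in HFD, 1.14, 1.35, 2.13 and 2.17 in HFD + siRNA and 0.706, 0.738, 0.712 and 0.749 in HFD + Inhib. It was higher in HFD than in LFD (1.29 ± 0.35, adjusted p = 0.0189) and lower in HFD + Inhib than in HFD (-1.35 ± 0.35, adjusted p = 0.0127) and than in HFD + siRNA (-1.22 ± 0.35, adjusted p = 0.0138), without overlap. These calls were lost, in the same order, without LFD replicate 3 (adjusted p = 0.0654), HFD replicate 2 (0.0697) or HFD replicate 3 (0.0659) and in a fit of only the 2 groups (0.0581), without HFD replicate 2 (adjusted p = 0.0590), and without HFD + siRNA replicate 4 (adjusted p = 0.0502). Tpx2, which activates Aurka on the spindle, was at 0.503, 0.358, 0.269 and 0.362 CPM in LFD, 0.795, 1.82, 1.74 and 1.09 in HFD, 0.759, 1.24, 1.43 and 1.32 in HFD + siRNA and 0.318, 0.777, 0.582 and 0.659 in HFD + Inhib. HFD was above LFD (1.88 ± 0.34, adjusted p = 0.00179) and HFD + Inhib below HFD (-1.22 ± 0.32, adjusted p = 0.0133) without overlap, the latter lost without HFD replicate 2 (adjusted p = 0.0529). HFD + Inhib was also lower than HFD + siRNA (-1.02 ± 0.32, adjusted p = 0.0225), with overlap and not without HFD + siRNA replicate 3 (adjusted p = 0.0683), HFD + siRNA replicate 4 (0.0615) or HFD + Inhib replicate 1 (0.0720). Nusap1, a microtubule-binding protein, had 0.545, 0.465, 0.358 and 0.758 CPM in LFD, 1.19, 1.13, 1.36 and 0.898 in HFD, 0.727, 0.619, 1.01 and 0.673 in HFD + siRNA and 0.530, 1.01, 1.07 and 0.449 in HFD + Inhib. HFD exceeded LFD without overlap (1.11 ± 0.31, adjusted p = 0.0215), a call lost without LFD replicate 3 (adjusted p = 0.0728) or HFD replicate 3 (0.0638), and with GC and length offsets (0.91, adjusted p = 0.0523). HFD + Inhib against HFD was -0.59 ± 0.30 (adjusted p = 0.191).

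Among genes of the kinetochore, Cenpe, a motor that carries chromosomes to the spindle equator, was at 0.168, 0.716, 0.179 and 0.659 CPM in LFD, 0.828, 2.41, 2.27 and 0.781 in HFD, 0.727, 0.801, 1.67 and 1.26 in HFD + siRNA and 0.671, 0.932, 0.938 and 0.659 in HFD + Inhib. HFD libraries were all above LFD libraries (1.87 ± 0.48, adjusted p = 0.0143), while HFD + Inhib against HFD was -0.99 ± 0.45 (SE, adjusted p = 0.147). Cenpf had 0.880, 0.537, 0.507 and 0.494 CPM in LFD, 1.82, 3.08, 4.06 and 1.60 in HFD, 1.68, 1.24, 1.78 and 1.90 in HFD + siRNA and 0.494, 1.44, 1.26 and 1.11 in HFD + Inhib. HFD was above LFD (2.14 ± 0.35, adjusted p = 0.000932) and HFD + Inhib below HFD (-1.30 ± 0.33, adjusted p = 0.0106), with no overlap in either. Cenpa, the histone that marks centromeres, was called in none of the 4 comparisons, with all libraries between 1.68 and 3.28 CPM and log2 fold changes of 0.11, 0.16, -0.10 and -0.26. Foxm1, the transcription factor of mitotic genes, was at 0.461, 0.358, 0.239 and 0.494 CPM in LFD, 0.729, 1.82, 1.90 and 0.859 in HFD, 0.537, 0.619, 1.25 and 0.908 in HFD + siRNA and 0.530, 0.582, 0.388 and 0.539 in HFD + Inhib. The factor's mRNA was higher in HFD than in LFD (1.78 ± 0.37, adjusted p = 0.00438) and lower in HFD + Inhib than in HFD (-1.38 ± 0.36, adjusted p = 0.0124), without overlap in either comparison.

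The replication genes are given next. Cdc6 and Cdt1 load the MCM helicase onto DNA. Cdc6, with 3 to 36 counts per library, was at 0.209, 0.107, 0.179 and 0.198 CPM in LFD, 0.265, 0.924, 0.493 and 0.352 in HFD, 0.0948, 0.218, 0.418 and 0.351 in HFD + siRNA and 0.106, 0.272, 0.259 and 0.0899 in HFD + Inhib. It was higher in HFD than in LFD without overlap (1.56 ± 0.50, adjusted p = 0.0373) and lower in HFD + Inhib than in HFD with overlap (-1.52 ± 0.49, adjusted p = 0.0412). The first call was lost without LFD replicate 1 (adjusted p = 0.0675), LFD replicate 2 (0.0815), LFD replicate 3 (0.0857), LFD replicate 4 (0.0553), HFD replicate 2 (0.159) or HFD replicate 3 (0.0719), and the second without HFD replicate 2 (adjusted p = 0.202), HFD replicate 3 (0.0640), HFD + Inhib replicate 1 (0.109) or HFD + Inhib replicate 4 (0.123). Cdt1 had 2.76, 2.69, 3.70 and 2.73 CPM in LFD, 2.48, 1.82, 2.65 and 1.76 in HFD, 1.87, 1.13, 3.03 and 1.52 in HFD + siRNA and 1.13, 1.32, 0.582 and 1.29 in HFD + Inhib. All HFD libraries were below all LFD libraries, although the test gave -0.45 ± 0.28 (adjusted p = 0.275). HFD + Inhib was lower than HFD without overlap (-1.01 ± 0.30, adjusted p = 0.0247) and lower than HFD + siRNA (-0.80 ± 0.30, adjusted p = 0.0457) with overlap. The call against HFD was lost without HFD replicate 1 (adjusted p = 0.0673), HFD replicate 3 (0.0652) or HFD + Inhib replicate 3 (0.0723). The call against HFD + siRNA was lost without HFD + siRNA replicate 1 (adjusted p = 0.0783), HFD + siRNA replicate 3 (0.214), HFD + siRNA replicate 4 (0.0512), HFD + Inhib replicate 1 (0.0746), HFD + Inhib replicate 3 (0.136) or HFD + Inhib replicate 4 (0.0539), and also with no filter (0.0630), in a fit of the 2 groups alone (0.0970), with the replicate number as a block (0.0770) and with GC and length offsets (0.146).

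Mcm2 to Mcm7 encode the 6 subunits of the helicase that unwinds DNA. Mcm6 was at 4.52, 2.65, 3.31 and 3.16 CPM in LFD, 5.40, 10.2, 6.67 and 4.69 in HFD, 4.33, 4.80, 6.27 and 4.86 in HFD + siRNA and 2.93, 4.74, 3.30 and 3.54 in HFD + Inhib. It was higher in HFD than in LFD without overlap (0.99 ± 0.23, adjusted p = 0.00896) and lower in HFD + Inhib than in HFD (-0.90 ± 0.23, adjusted p = 0.0124), where the groups overlapped. The second value was -0.63 (adjusted p = 0.0552) without HFD replicate 2. Mcm2 had 3.35, 2.04, 2.30 and 2.90 CPM in LFD, 3.21, 5.90, 4.32 and 2.62 in HFD, 3.89, 3.68, 4.32 and 4.77 in HFD + siRNA and 3.0, 4.27, 2.72 and 3.33 in HFD + Inhib. Its groups overlapped in all 4 comparisons, and HFD against LFD was 0.61 ± 0.23 (adjusted p = 0.0781), which was called without HFD replicate 4 (adjusted p = 0.0382). Mcm7 was at 13.1, 12.4, 14.6 and 10.3 CPM in LFD, 11.5, 11.9, 10.1 and 8.79 in HFD, 12.1, 13.2, 12.5 and 12.9 in HFD + siRNA and 8.97, 11.8, 9.16 and 9.71 in HFD + Inhib. It was lower in HFD + Inhib than in HFD + siRNA without overlap (-0.36 ± 0.12, adjusted p = 0.0308), and HFD against LFD was -0.25 ± 0.12 (adjusted p = 0.156). The call was lost without HFD + siRNA replicate 1 (adjusted p = 0.0503), HFD + siRNA replicate 2 (0.0748), HFD + siRNA replicate 3 (0.0649), HFD + siRNA replicate 4 (0.0795), HFD + Inhib replicate 1 (0.0986), HFD + Inhib replicate 3 (0.0825) or HFD + Inhib replicate 4 (0.0703). It was also lost with no filter (0.0638) and with GC and length offsets, at -0.19 (adjusted p = 0.168). Mcm4 was called higher in HFD than in LFD (0.46 ± 0.14, adjusted p = 0.0312) with overlap, at 3.61 to 4.57 CPM in LFD and 4.40 to 6.90 in HFD, a call lost without LFD replicate 2 (adjusted p = 0.0525), LFD replicate 3 (0.0981), HFD replicate 2 (0.104) or HFD replicate 3 (0.0860), with no filter (0.0544) and in a fit of only the 2 groups (0.0877). Mcm3 and Mcm5 were called in none of the 4 comparisons, with HFD against LFD at 0.30 ± 0.20 (adjusted p = 0.309) and 0.76 ± 0.28 (adjusted p = 0.0664). Mcm5 was called there without LFD replicate 1 (adjusted p = 0.0216), and Mcm3 in HFD + Inhib against HFD + siRNA without HFD + Inhib replicate 2 (adjusted p = 0.0145). Subunits of the helicase were called higher in HFD against LFD in 2 of 6 cases, Mcm4 and Mcm6, beside 9.58% of all tested genes. With offsets for GC content and length, Mcm4 was not called (0.39, adjusted p = 0.0543), and Mcm2 (0.71, adjusted p = 0.0375) and Mcm5 (0.87, adjusted p = 0.0351) were.

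Pcna, the sliding clamp that holds DNA polymerase and the most abundant of the replication genes, was at 15.7, 17.2, 17.4 and 16.2 CPM in LFD, 15.6, 16, 18.0 and 19.3 in HFD, 16.8, 19.6, 20.4 and 17.2 in HFD + siRNA and 15.4, 19.4, 16.5 and 18.7 in HFD + Inhib. The 4 groups overlapped, and the log2 fold change was 0.05 ± 0.10 (SE, adjusted p = 0.760) in HFD against LFD, 0.10 ± 0.10 (SE, adjusted p = 0.536) in HFD + siRNA against HFD and 0.03 ± 0.10 (SE, adjusted p = 0.896) in HFD + Inhib against HFD. Rrm1 and Rrm2 are the subunits of ribonucleotide reductase, which makes deoxynucleotides. Rrm2 had 2.60, 4.05, 3.70 and 5.37 CPM in LFD, 4.24, 6.21, 4.55 and 3.40 in HFD, 2.94, 2.62, 3.94 and 3.02 in HFD + siRNA and 1.38, 1.90, 1.13 and 1.98 in HFD + Inhib. HFD and LFD overlapped (0.23 ± 0.23, adjusted p = 0.533). All HFD + Inhib libraries were below all libraries of the other 3 groups, with -1.53 ± 0.25 (adjusted p = 0.000387) against HFD and -0.97 ± 0.25 (adjusted p = 0.00678) against HFD + siRNA. Rrm1 was called in none of the comparisons, with all libraries between 7.58 and 11.6 CPM and HFD + Inhib against HFD at -0.02 ± 0.12 (adjusted p = 0.942). HFD + Inhib against HFD + siRNA was -0.20 ± 0.12 (adjusted p = 0.208), which with GC and length offsets became -0.46 (adjusted p = 0.00828) and was called. Tyms (thymidylate synthase) and Tk1 (thymidine kinase) were likewise called in none. Tyms lay between 4.16 and 5.67 CPM in the 16 libraries. Tk1 lay between 14.0 and 20.0 CPM in LFD and between 8.86 and 14.5 in HFD, with -0.49 ± 0.18 (adjusted p = 0.0636), called lower without HFD replicate 4 (adjusted p = 0.0382).

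Of the regulators of the passage from G1 to S, Ccnd1 (cyclin D1) was at 36.3, 9.99, 12.4 and 11.9 CPM in LFD, 21.2, 38.1, 31.6 and 26.9 in HFD, 48.6, 48.4, 52.2 and 59.2 in HFD + siRNA and 20.4, 11.6, 12.0 and 21.0 in HFD + Inhib. The HFD + siRNA libraries were above all others, and HFD + Inhib was lower than HFD + siRNA (-1.68 ± 0.34, adjusted p = 0.00132). HFD + siRNA against HFD was 0.82 ± 0.33 (SE, adjusted p = 0.116) and HFD + Inhib against HFD was -0.86 ± 0.33 (SE, adjusted p = 0.0875), both without overlap and neither called. A fit of only the 2 groups compared called both, at 0.81 (adjusted p = 0.00929) and -0.87 (adjusted p = 0.0264). LFD replicate 1, at 36.3 CPM, lay far above the other LFD libraries (9.99 to 12.4). HFD against LFD was 0.75 ± 0.33 (adjusted p = 0.131) with it, and 1.38 (adjusted p = 0.00184) without it. Ccne2 (cyclin E2) had 0.251, 0.465, 0.776 and 0.626 CPM in LFD, 1.49, 2.34, 2.62 and 2.73 in HFD, 1.23, 0.946, 1.08 and 1.05 in HFD + siRNA and 2.30, 1.40, 1.84 and 2.16 in HFD + Inhib. Every HFD library was above every LFD library (2.07 ± 0.28, adjusted p = 0.000263). The HFD + siRNA libraries were below all HFD libraries (-1.08 ± 0.26, adjusted p = 0.0149), which made Ccne2 the only one of the 40 genes called in this comparison. HFD + Inhib was -0.25 from HFD (adjusted p = 0.552) and higher than HFD + siRNA without overlap (0.83 ± 0.26, adjusted p = 0.0221). That last call was lost without HFD + Inhib replicate 1 (adjusted p = 0.0558) or HFD + Inhib replicate 4 (0.0582). Once GC content and the length of transcripts were corrected for, the 2 calls against HFD + siRNA were both lost, at -0.64 (adjusted p = 0.141) for HFD + siRNA against HFD and 0.22 (adjusted p = 0.566) for HFD + Inhib against HFD + siRNA.

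Cdkn1a encodes p21, an inhibitor of cyclin-dependent kinases that p53 induces. It was at 7.04, 3.40, 7.43 and 2.77 CPM in LFD, 3.34, 6.44, 3.45 and 1.76 in HFD, 9.01, 11.6, 7.32 and 21.6 in HFD + siRNA and 2.72, 6.37, 22.6 and 2.64 in HFD + Inhib. HFD + siRNA lay above all HFD libraries (1.71 ± 0.61, adjusted p = 0.0801), but the spread was wide and no comparison was called. A fit of only HFD and HFD + siRNA called Cdkn1a higher, at 1.70 (adjusted p = 0.0208). HFD + Inhib replicate 3 (22.6 CPM) and HFD + siRNA replicate 4 (21.6 CPM) were the highest, and without the former HFD + Inhib was lower than HFD + siRNA by -1.68 (adjusted p = 0.0195). E2f1, an activating E2F factor, was lower in HFD + Inhib than in HFD + siRNA (-0.79 ± 0.26, adjusted p = 0.0249) with overlap, at 1.77 to 2.68 CPM in HFD + Inhib and 2.40 to 5.03 in HFD + siRNA. This call was lost without HFD + siRNA replicate 1 (adjusted p = 0.0986), HFD + siRNA replicate 3 (0.0771), HFD + Inhib replicate 1 (0.0738) or HFD + Inhib replicate 4 (0.0635), and with GC and length offsets, at -0.50 (adjusted p = 0.0998). Ccne1 (cyclin E1), with 3 to 23 counts per library, was called in none of the comparisons.

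**Figure D3:**
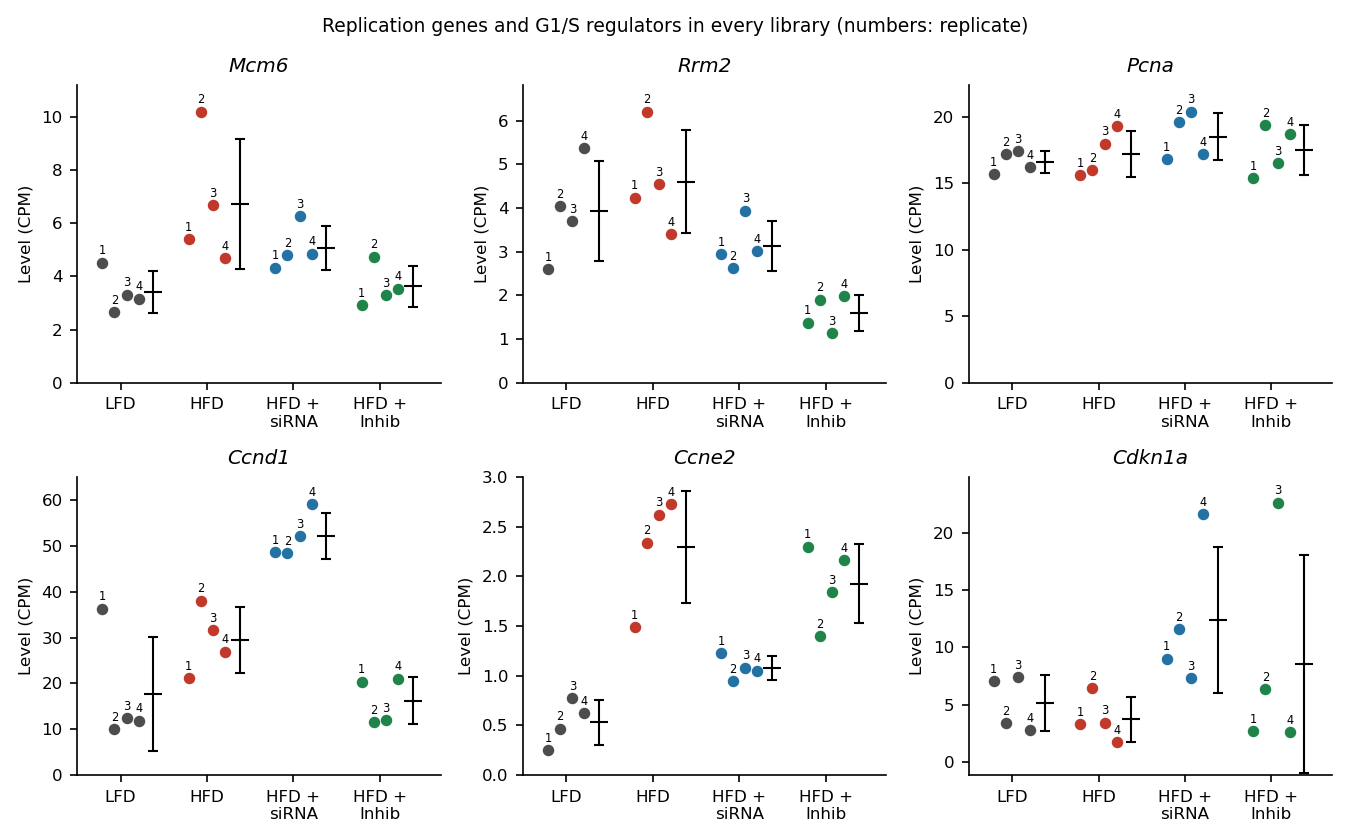
Level (CPM) of Mcm6, Rrm2, Pcna, Ccnd1, Ccne2 and Cdkn1a in each of the 16 livers. Each point is 1 library with its replicate number, and the bar beside each group is the mean ± SD (n = 4), which for Cdkn1a in HFD + Inhib reaches below 0. Pcna overlaps in all groups, Rrm2 is lowest in HFD + Inhib (1.13 to 1.98 CPM) and Ccnd1 is highest in HFD + siRNA (48.4 to 59.2 CPM).

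The treatments were compared directly to test whether they differed from each other, since a call for one of them against HFD and none for the other does not show this. Cdc20, Ube2c, Plk1, Ccnb2, Kif20a, Mki67, Cdk1 and Aurka among the mitotic genes were lower in HFD + Inhib than in HFD + siRNA with no overlap, and Ccnb1 and Tpx2 were lower with overlap. The sizes ran from -2.63 for Cdc20 to -0.80 for Mki67. The other 12 mitotic genes were not called, with Birc5 at 0.01 ± 0.32 (adjusted p = 0.976), Nusap1 at 0.01 ± 0.31 (adjusted p = 0.989) and Kif11 at -0.05 ± 0.29 (adjusted p = 0.915). Of the replication genes, Rrm2, Cdt1 and Mcm7 were lower. Over all tested genes, 16.6% were called lower in this comparison. The calls of Mki67, Cdk1, Cdt1 and Mcm7 were lost without most of the single libraries, as given above. Those of Ccnb1, Tpx2 and Kif20a were also lost without certain single libraries.

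**Figure D4:**
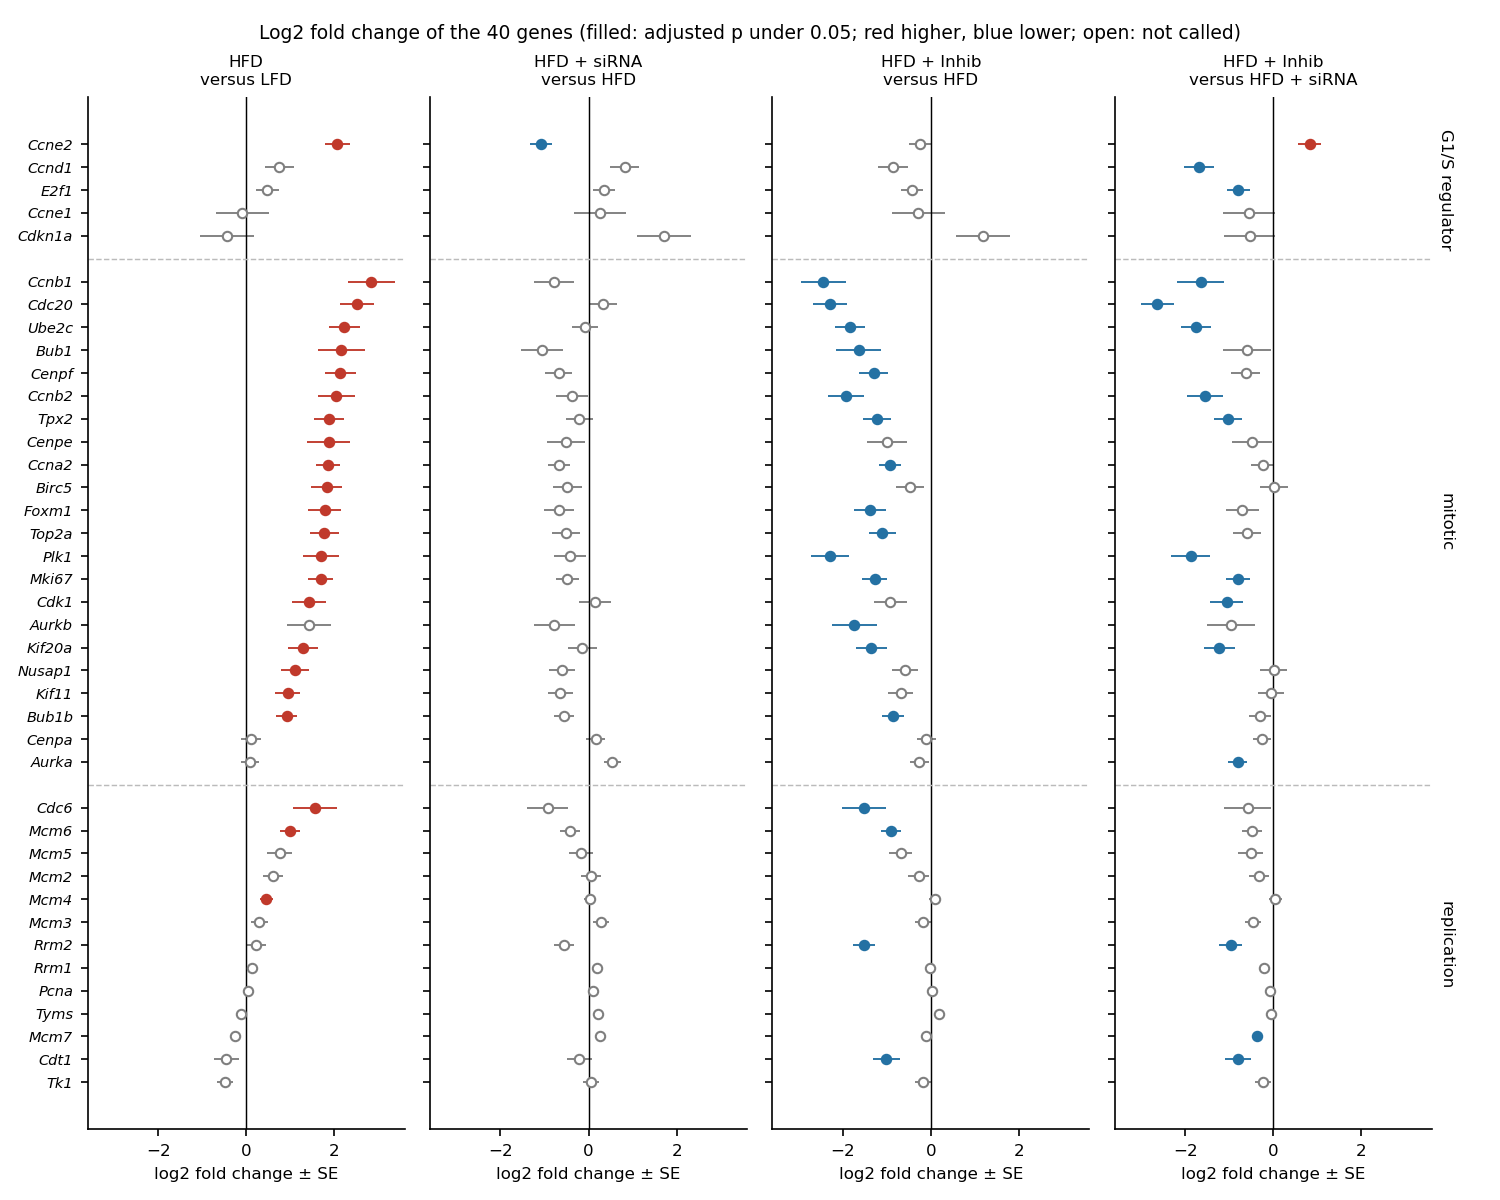
Log2 fold change with its SE (x axis) of each of the 40 genes (y axis, grouped by class and ordered within it by the first panel) in the 4 comparisons. Filled points have an adjusted p under 0.05, red where higher and blue where lower, and open points were not called. In the first panel 19 of 22 mitotic and 3 of 13 replication genes are filled, and in the second panel 1 gene, Ccne2. Of all tested genes, 9.58% were called higher in the first comparison and 6.55% lower in the second. Bub1 and Cdc6, filled in the first panel, passed the filter only with the help of the HFD libraries.

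Other genes of the same processes were read from longer lists that leave out the 40. Of 66 further mitotic genes 57 were tested, and 31 were higher and 0 lower in HFD than in LFD, with a median log2 fold change of 1.03 and beside the 9.58% and 8.79% of all genes. Ckap2, a spindle protein, was at 0.168, 0.179, 0.119 and 0.132 CPM in LFD and 0.993, 1.54, 1.55 and 0.703 in HFD (2.99 ± 0.33, adjusted p = 5.63e-05). Smc4, a condensin subunit, and Kif20b, a kinesin, were higher as well (0.74 ± 0.11, adjusted p = 0.000439 and 1.50 ± 0.24, adjusted p = 0.000952). In HFD + siRNA against HFD, 0 of the 57 were higher and 2 lower, beside 5.20% and 6.55% of all genes. The 2 were Smc4 (-0.57 ± 0.11, adjusted p = 0.00391) and Knl1 of the kinetochore (-1.26 ± 0.33, adjusted p = 0.0223). In HFD + Inhib against HFD, 14 were lower and 2 higher, beside 8.42% and 9.80% of all genes, with a median of -0.69. Ccnf (cyclin F) was at 19.5, 25.4, 22.1 and 18.6 CPM in HFD and 6.04, 8.35, 8.74 and 5.66 in HFD + Inhib (-1.57 ± 0.16, adjusted p = 3.68e-06), with no overlap. Ckap2 (-2.19 ± 0.31, adjusted p = 0.000107) and Cdca3, a trigger of mitotic entry (-1.72 ± 0.27, adjusted p = 0.000284), were lower too. The 2 higher were Pttg1 (securin, 0.40 ± 0.11, adjusted p = 0.0150) and Spc25 of the kinetochore (0.86 ± 0.23, adjusted p = 0.0167). Between the treatments, 2 of the 57 were higher and 6 lower in HFD + Inhib than in HFD + siRNA, beside 17.3% and 16.6% of all genes, with a median of -0.35. Both counts fell short of these shares, so this list showed no excess of calls between the treatments. Spc25 (1.41 ± 0.24, adjusted p = 0.000335) and Smc4 (0.60 ± 0.11, adjusted p = 0.000533) were the 2 higher, and Ccnf (-1.12 ± 0.15, adjusted p = 5.95e-05), Ckap2 (-1.58 ± 0.31, adjusted p = 0.00116) and Cdca3 (-1.27 ± 0.27, adjusted p = 0.00197) were among the 6 lower. Without HFD replicate 2, this list had 25 higher and 0 lower in HFD against LFD (8.15% and 7.35% of all genes tested then). It had 0 higher and 2 lower in HFD + siRNA against HFD (4.16% and 5.92%), and 1 higher and 5 lower in HFD + Inhib against HFD (7.96% and 6.03%). These 5 were 8.77% of the list, near the 6.03% of all genes, and the median was then -0.53.

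Of 60 further replication genes 57 were tested, and in HFD against LFD 10 were higher and 3 lower, beside 9.58% and 8.79% of all genes, with a median of 0.09. Pole, the catalytic subunit of DNA polymerase epsilon (0.75 ± 0.16, adjusted p = 0.00550), and Orc5 of the origin recognition complex (0.52 ± 0.12, adjusted p = 0.00762) were among those higher. The 3 lower were Mcmbp, which binds the MCM complex (-0.30 ± 0.08, adjusted p = 0.0149), Rnaseh2a (-0.53 ± 0.15, adjusted p = 0.0226) and Pola2 of DNA polymerase alpha (-0.46 ± 0.14, adjusted p = 0.0356). In HFD + siRNA against HFD 4 were higher and 2 lower, beside 5.20% and 6.55% of all genes, with Pole3 (0.92 ± 0.17, adjusted p = 0.00330) and Pold2 (0.55 ± 0.12, adjusted p = 0.00714), subunits of DNA polymerases, higher and Orc4 lower (-0.70 ± 0.14, adjusted p = 0.00491). For HFD + Inhib against HFD the counts were 5 higher and 6 lower, close to the 9.80% and 8.42% of all genes. Gins4 of the replicative helicase (0.58 ± 0.12, adjusted p = 0.00235) and Pole3 (0.73 ± 0.17, adjusted p = 0.00647) were among those higher. In HFD + Inhib against HFD + siRNA 8 were higher and 10 lower, close to the 17.3% and 16.6% of all genes, with Orc4 among the higher (0.99 ± 0.14, adjusted p = 6.95e-05) and Rpa2, which binds single-stranded DNA, among the lower (-0.84 ± 0.16, adjusted p = 0.000728). Without HFD replicate 2, 8 were higher and 2 lower in HFD against LFD (8.15% and 7.35% of all genes), 3 higher and 2 lower in HFD + siRNA against HFD (4.16% and 5.92%), and 4 higher and 1 lower in HFD + Inhib against HFD (7.96% and 6.03%).

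Among 35 further G1/S regulators, of which 34 were tested, E2f2, an activating E2F factor, was at 2.42, 4.31, 2.99 and 2.54 CPM in HFD, 4.17, 2.33, 3.10 and 4.22 in HFD + siRNA and 0.741, 0.777, 0.712 and 0.779 in HFD + Inhib. It was lower in HFD + Inhib than in HFD (-2.03 ± 0.29, adjusted p = 0.000143) and than in HFD + siRNA (-2.20 ± 0.29, adjusted p = 3.92e-05), with no overlap. E2f8, a repressing E2F factor, was at 11.2, 5.57, 5.35 and 6.09 CPM in HFD and 11.9, 40.3, 24.2 and 20.0 in HFD + Inhib (1.77 ± 0.51, adjusted p = 0.0227), also without overlap. Mycn was higher in HFD than in LFD (1.30 ± 0.29, adjusted p = 0.00724) and lower in HFD + siRNA (-1.42 ± 0.29, adjusted p = 0.00642) and in HFD + Inhib (-1.90 ± 0.30, adjusted p = 0.000368) than in HFD. Cdk6, a partner of D-type cyclins, was higher in HFD than in LFD (0.54 ± 0.10, adjusted p = 0.00279) and lower in HFD + siRNA than in HFD (-0.64 ± 0.10, adjusted p = 0.00162). In all, this list had 4 higher and 2 lower in HFD against LFD, 0 and 3 in HFD + siRNA against HFD, 3 and 4 in HFD + Inhib against HFD, and 7 and 3 in HFD + Inhib against HFD + siRNA. The shares over all genes were 9.58% and 8.79%, 5.20% and 6.55%, 9.80% and 8.42%, and 17.3% and 16.6% in the same order, and nothing is read from the list as a whole. Without HFD replicate 2 the first 3 of these pairs of counts were 5 and 3, 0 and 4, and 2 and 2, beside 8.15% and 7.35%, 4.16% and 5.92%, and 7.96% and 6.03% of all genes.

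Targets of p53, the factor that halts the cell cycle after DNA damage, were given as a list of 25 genes, all tested. In HFD against LFD 7 were higher and 1 lower, beside 9.58% and 8.79% of all genes. Perp (0.73 ± 0.09, adjusted p = 0.000109) and Ccng1 (0.74 ± 0.11, adjusted p = 0.000430) were higher, with Ccng1 at 24.3, 23.7, 19.9 and 26.3 CPM in LFD and 35.6, 39.1, 42.5 and 40.4 in HFD. Plk2 was lower (-0.60 ± 0.19, adjusted p = 0.0356). In HFD + siRNA against HFD 0 were higher and 4 lower (background 5.20% and 6.55%), Perp (-0.96 ± 0.09, adjusted p = 3.05e-05) and Ccng1 (-0.45 ± 0.11, adjusted p = 0.0135) among them. Against HFD, HFD + Inhib had Fas higher (0.79 ± 0.12, adjusted p = 0.000311) and Ddit4 lower (-1.22 ± 0.30, adjusted p = 0.00856), and the other 23 were not called. Over all genes, 9.80% were higher and 8.42% lower there. With HFD replicate 2 left out, the list had 6 higher and 1 lower in HFD against LFD, 1 and 4 in HFD + siRNA against HFD, and 2 and 1 in HFD + Inhib against HFD, beside 8.15% and 7.35%, 4.16% and 5.92%, and 7.96% and 6.03% of all genes. Between the treatments 4 were higher and 2 lower in HFD + Inhib, beside 17.3% and 16.6% of all genes. Mdm2, which degrades p53, was called in none of the 4 comparisons, with 0.06 ± 0.09 (adjusted p = 0.703) in HFD against LFD and 0.03 ± 0.09 (adjusted p = 0.884) in HFD + Inhib against HFD.

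Dividing cells in a liver can be other than hepatocytes, so marker genes of other cell types were read in the same comparisons. Between the treatments, 10 mitotic genes were lower in HFD + Inhib than in HFD + siRNA, and so were 6 of 14 macrophage markers and 5 of 8 hepatocyte markers. The counts called lower were 2 of 7 for T and NK cells, 1 of 6 for B and plasma cells and 2 of 8 for stellate cells and fibroblasts. They were 2 of 8 for erythroid, 2 of 7 for endothelial and 1 of 7 for cholangiocyte markers. Over all genes 16.6% were lower, and nothing is read from the counts of 1 or 2 genes. Hepatocyte, macrophage, endothelial and cholangiocyte markers had 1 higher each, beside 17.3% of all genes. Clec4f of Kupffer cells (-0.80 ± 0.12, adjusted p = 0.000138), Alb (-0.84 ± 0.13, adjusted p = 0.000208) and Cd4 (-3.60 ± 0.32, adjusted p = 8.29e-07) were among the lower, and the part of these cell types in the values of the mitotic genes was not tested. Of 10 T and NK cell markers, 7 were tested and 0 were called in HFD against LFD. In HFD + siRNA against HFD 1 was higher and 0 were lower, beside 5.20% and 6.55% of all genes. In HFD + Inhib against HFD 3 of the 7 were lower, beside 8.42% of all genes, namely Cd4 (-1.98 ± 0.33, adjusted p = 0.000538), Trac (-1.55 ± 0.38, adjusted p = 0.00972) and Nkg7 (-1.95 ± 0.56, adjusted p = 0.0226). The list summed to 4.19, 4.26, 3.10 and 5.53 CPM in LFD, 4.07, 8.60, 2.81 and 4.69 in HFD, 4.46, 6.37, 6.10 and 7.20 in HFD + siRNA and 2.72, 1.63, 1.65 and 1.47 in HFD + Inhib, with Cd4 the most abundant gene and a median of 3 or fewer counts for 1 of the 10. HFD replicate 2 was the highest of the 16 libraries. Of 7 B and plasma cell markers 6 were tested, with 1 higher in HFD than in LFD (Ighm, 1.46 ± 0.43, adjusted p = 0.0255), 1 lower in HFD + siRNA than in HFD and 2 lower in HFD + Inhib than in HFD, Ms4a1 among them (-2.31 ± 0.44, adjusted p = 0.00149). The shares of all genes in the same order were 9.58% higher, 6.55% lower and 8.42% lower. The sum of these B and plasma cell markers was 11.6, 10.0, 4.98 and 9.02 CPM in LFD, 11.9, 32.7, 14.0 and 13.3 in HFD, 7.56, 6.88, 7.22 and 9.08 in HFD + siRNA and 6.67, 7.22, 16.4 and 8.57 in HFD + Inhib, most of it from Ighm. Without HFD replicate 2, 2 of the 7 T and NK cell markers and 1 of the 6 B and plasma cell markers were lower in HFD + Inhib against HFD (6.03% of all genes), 1 and 0 were higher in HFD + siRNA against HFD (4.16%), and 0 of either list were called in HFD against LFD. The part of lymphocytes in the values of the 40 genes was not tested.

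All 14 macrophage markers were tested. In HFD against LFD 2 were higher, Ccr2 (0.93 ± 0.30, adjusted p = 0.0403) and Gpnmb (1.60 ± 0.53, adjusted p = 0.0441), and 1 lower, Cd9 (-1.20 ± 0.13, adjusted p = 3.27e-05), beside 9.58% and 8.79% of all genes. HFD + Inhib had 3 of them lower than HFD, among them Clec4f of Kupffer cells (-0.51 ± 0.12, adjusted p = 0.00756), and 1 was higher, beside 8.42% and 9.80% of all genes. The list summed to 250, 359, 251 and 267 CPM in LFD, 260, 270, 238 and 295 in HFD, 311, 271, 315 and 363 in HFD + siRNA and 258, 166, 202 and 215 in HFD + Inhib, with Clec4f the most abundant gene. HFD and LFD overlapped in this sum, and so did HFD and HFD + Inhib. Without HFD replicate 2, 0 macrophage markers were higher and 1 lower in HFD against LFD, 0 were called in HFD + siRNA against HFD, and 1 was higher and 1 lower in HFD + Inhib against HFD (7.96% and 6.03% of all genes). Hepatocyte markers were lower in 2 of 8 genes in HFD against LFD (8.79% of all genes), and in 3 of 8 in HFD + Inhib against HFD (8.42%), with Alb at -0.77 ± 0.13 (adjusted p = 0.000761) and Ttr at -0.93 ± 0.12 (adjusted p = 5.56e-05). The part of macrophages and of hepatocyte RNA in the values of the 40 genes was not tested.

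Of 9 markers of neutrophils and myeloid progenitors, 7 had a median of 3 or fewer counts, among them Ly6g with 1 count in the 16 libraries, and the 2 tested were not called. Of 8 erythroid markers tested 0 were called in HFD against LFD and 1 was lower in HFD + Inhib against HFD (Epor, -0.94 ± 0.25, adjusted p = 0.0162). Of 7 endothelial markers 0 were called in HFD against LFD and 1 was higher in HFD + Inhib against HFD. Of 8 stellate cell and fibroblast markers 1 was higher in HFD than in LFD (Reln, 0.38 ± 0.10, adjusted p = 0.0167) and 2 were lower in HFD + Inhib than in HFD (Reln, -0.66 ± 0.10, adjusted p = 0.000250, and Pdgfrb, -0.45 ± 0.12, adjusted p = 0.0157). Of 7 cholangiocyte markers 1 was higher in HFD than in LFD (Spp1, 0.62 ± 0.19, adjusted p = 0.0313). Over all genes, 9.58% were called higher and 8.79% lower in HFD against LFD, and 9.80% and 8.42% in HFD + Inhib against HFD.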

How the data were processed

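Liver RNA of 16 mice was sequenced, 1 library per mouse, and the groups were taken from the labels. The authors deposited RSEM expected counts per gene symbol (15.1% of the values were not whole numbers), and the submitters' processing notes name STAR, RSEM and mm39 without versions or settings. The study's methods name HTG EdgeSeq, a probe assay, for its RNA sequencing, and which assay gave these counts is not given in the sources used here. Strandedness is likewise not given, so reads of overlapping genes could not be told apart.

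Expected counts were rounded and then filtered with filterByExpr of edgeR (minimum count 10, minimum total 15). TMM factors were 0.930 to 1.09. The quasi-likelihood test of edgeR 4.0.16 in R 4.3.3 was fitted to the 16 libraries together, with a contrast for each of the 4 comparisons and Benjamini-Hochberg adjustment over all 18335 tested genes. The SE of a log2 fold change was derived from its F statistic. Each p-value sets a difference of group means against the spread between the libraries within groups. The test and the alternatives were checked on simulated data, and the outcome of that check is not reported here. The 24 pairs of libraries within a group differed by 18.5 to 136 times the sampling noise (chi-square per gene), so no library was counted as a repeat of another.

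Members and lists were chosen with earlier results of these data known. Values in every library were given for members called without overlap in at least 1 comparison and for Mki67, Cdk1, Ccnd1, Cdkn1a, Pcna and Mcm2. In the other lists up to 3 called genes per direction were named, with Mdm2 and Ccng1, and some genes that this rule names are not reported here. Khk and Cd8a were added as checks of the libraries. Alternatives were DESeq2 1.42.0, its size factors, no filter, at least 10 counts in every library, fits of only the groups compared, a replicate block, omission of each library, and offsets for GC content and length from transcripts of another annotation (spline with 5 degrees of freedom). Promoter coordinates are of GRCm38.p6 and were not compared with mm39.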

Additional observations from a re-analysis of the deposited data

Results flagged for a closer look

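In 5 of the 124 groups of 4 libraries examined over 31 named genes, 1 library stood apart from the other 3 by Dixon's criterion at the 95% level, which chance alone gives in about 1 group of 20. LFD replicate 1 had 36.3 CPM of Ccnd1 against 9.99 to 12.4 in the other LFD libraries, and 0.880 CPM of Cenpf against 0.494 to 0.537. LFD replicate 3 had 3.70 CPM of Cdt1 against 2.69 to 2.76, and 0.537 CPM of Kif20a against 0.823 to 0.880. HFD + Inhib replicate 2 had 0.621 CPM of Ube2c against 0.259 to 0.282.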

How the results depend on the processing

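Over the 40 members, the 4 comparisons and all alternatives, 2194 log2 fold changes stayed on the same side of the threshold, 108 were no longer called, 21 became called and 0 called values changed direction. With at least 10 counts in every library, 25 members were tested and 10 were called higher in HFD against LFD, 9 lower in HFD + Inhib against HFD, and 8 lower in HFD + Inhib against HFD + siRNA, beside 11.5%, 9.74% and 18.3% of all genes. Ccne2, with a lowest count of 6, was removed by this filter before the test, so the count lower in HFD + siRNA against HFD and the count higher in HFD + Inhib against HFD + siRNA, for which it was the only call, were 0 among the members left. Over DESeq2, its size factors, no filter, fits of 2 groups, the replicate block and the GC and length offsets, HFD against LFD had 18 to 24 members higher, HFD + Inhib against HFD 17 to 19 lower and HFD + Inhib against HFD + siRNA 12 to 15 lower, beside 4.57% to 10.6%, 3.77% to 11.2% and 7.49% to 16.8% of all genes. DESeq2 called 1 member lower in HFD against LFD, Tk1 (-0.49, adjusted p = 0.0406). The fit of only HFD and HFD + siRNA called 2 members higher, Ccnd1 (0.81, adjusted p = 0.00929) and Cdkn1a (1.70, adjusted p = 0.0208), and that of HFD and HFD + Inhib called Ccnd1 lower (-0.87, adjusted p = 0.0264). With no filter, calls were lost in HFD against LFD for Cdc6 (adjusted p = 0.0585) and Mcm4 (0.0544), in HFD + Inhib against HFD for Cdc6 (0.0689) and Bub1 (0.0628), and in HFD + Inhib against HFD + siRNA for Cdt1 (0.0630), Mcm7 (0.0638) and Cdk1 (0.0524). Fits of 2 groups lost Mcm4 (0.0877), Cdk1 (0.0502) and Kif20a (0.0581) in the first of these and Cdt1 (0.0970) in the last, and Cdc6, Bub1 and Plk1 each fell under their filter in at least 1 of these fits. The cause of the other differences was not tested.

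With GC and length offsets, for which 40 members and 86.5% of tested genes had values, HFD against LFD had 23 members higher, 20 of them shared with the uncorrected test. Of all genes, 8.79% were called higher there. Kif11 (0.74, adjusted p = 0.106), Nusap1 (0.91, adjusted p = 0.0523) and Mcm4 (0.39, adjusted p = 0.0543) were not called, and Mcm2 (0.71, adjusted p = 0.0375), Mcm5 (0.87, adjusted p = 0.0351) and E2f1 (0.72, adjusted p = 0.0380) were. The calls lower in HFD + siRNA against HFD and higher in HFD + Inhib against HFD + siRNA went to 0, and of the 15 calls lower in the latter comparison 12 were shared. Of all genes, 5.51% were lower in the former, and 14.1% were higher and 15.2% lower in the latter. Mcm7 (-0.19, adjusted p = 0.168), Cdt1 (-0.54, adjusted p = 0.146) and E2f1 (-0.50, adjusted p = 0.0998) were not called there, and Rrm1 (-0.46, adjusted p = 0.00828), Pcna (-0.26, adjusted p = 0.0418) and Top2a (-0.85, adjusted p = 0.0492) were. Median GC content was 49.4% for tested genes, 49.2% for replication members and 47.8% for mitotic members.

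With each library of the compared groups left out in turn, members called higher and lower were 17 to 24 and 0 to 1 in HFD against LFD, 0 to 1 higher in HFD + siRNA against HFD, 10 to 19 lower in HFD + Inhib against HFD, and 0 to 1 higher and 8 to 16 lower in HFD + Inhib against HFD + siRNA. The shares of all genes were 5.86% to 10.8% higher and 4.91% to 9.72% lower in the first comparison, 2.40% to 4.16% higher in the second, 6.03% to 7.63% lower in the third, and 14.5% to 17.9% higher and 12.0% to 15.5% lower in the last.

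The labels do not say what the replicate number marks, and it was not taken to pair the libraries. Deviations from the group means of same-numbered libraries correlated at -0.132 to 0.336 over 16 pairs, and best with their own number in 5. With the replicate block, 23 members were called higher and 1 lower (Tk1) in HFD against LFD, 18 lower in HFD + Inhib against HFD, without Bub1 (-1.68, adjusted p = 0.0508), and 14 lower in HFD + Inhib against HFD + siRNA, without Cdt1 (-0.73, adjusted p = 0.0770). The shares of all genes with this block were 9.37% higher and 8.62% lower, 8.40% lower, and 16.8% lower, in the same order. Depth limits genes with few counts, such as Cdc6, Aurkb and Bub1, which had means of 8.75, 9.31 and 7.25 counts per library.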
